A study of Mus musculus with 50 samples.

Results

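Cortical projection neurons are born from radial glia and from the intermediate progenitors that radial glia give rise to, and 10 genes that mark these cells were followed here in mouse frontal cortex. Sox2, Pax6 and Emx2 encode transcription factors of radial glia. Nes (nestin), Vim (vimentin) and Fabp7 (brain lipid-binding protein) encode structural or lipid-binding proteins of radial glia, Hes1 and Hes5 encode repressors that act downstream of Notch, and Neurog2 and Eomes (Tbr2) encode the factors of the step towards intermediate progenitors and neurons. The genes were chosen by name, as markers of these cells, and are 10 of the 55487 genes in the count files. All 10 had enough counts to be tested, among 16330 protein-coding genes.

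RNA of the frontal cortex was sequenced from mice of 2 genotypes, wild-type and heterozygous Setd1a knockout (Setd1a+/-). There were 5 animals per genotype at each of 5 ages, embryonic days 14 (E14) and 18 (E18) and postnatal days 7, 35 and 70 (P7, P35, P70), which makes 50 libraries in 10 groups. Setd1a encodes a histone H3 lysine 4 methyltransferase, and the heterozygous allele, made by a knockout-first design, is carried in the germline and so was present in every cell type of the tissue. The labels give the strain as C57BL/6NTac for every library, whereas the methods of the study describe a mixed background of that strain and C57BL/6J, male animals, and embryonic ages slightly later than those of the labels. By the same methods, the dissection took frontal brain regions in embryos and frontal cortex after birth. Age and dissection therefore cannot be told apart in comparisons of embryonic with postnatal ages. The tissue was homogenised as a whole, so that fewer cells of a type and less RNA of a gene per cell cannot be told apart in any value below.

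In the embryonic cortex, radial glia line the ventricle and divide there. Notch signalling between neighbouring cells keeps Hes1 and Hes5 on and the proneural gene Neurog2 off, and a cell that escapes it turns on Neurog2 and then Eomes, moves away from the ventricle and makes neurons. Towards birth radial glia turn to making astrocytes and oligodendrocytes, and some of their genes, Sox2, Hes5, Fabp7 and Vim among them, remain in use in glia or in blood vessels after birth.

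Promoter sequences were available for 9 of the 10 genes, with 2 for Pax6 and none for Hes1, in the RefSeq promoter table (build GRCm38.p6), each covering 250 bases before and 50 bases after the start of transcription. They held 6 to 41 CpG dinucleotides with a median of 17, compared with a median of 7 over all 32841 promoters of that length. The Hes5 promoter had the 41, a number that 3.46% of all promoters reach. Each was searched on both strands for 6 motifs, among them the core of the site of RBPJ (the DNA-binding partner of Notch), the N-box bound by Hes repressors and the TATA box. The RBPJ core, TGGGAA, lay in 25.6% of all promoters and in those of Hes5, Fabp7 and Emx2, with 2 copies in Hes5, as in 3.78% of all promoters. The N-box, here CACNAG, lay in 42.5% of all promoters and in those of Vim, Fabp7, Neurog2, Eomes and the second one of Pax6, with 2 copies in Eomes, as in 11.3% of all promoters. TATAAA, the only form of the TATA box searched, lay in 13.6% of all promoters and here in that of Vim, 32 bases before the start. Other forms were not searched, such as the tatataag in the Neurog2 and Eomes promoters printed below. The other 3 were CACGNG, a further Hes site (27.5% of all promoters, none of these 10), the E-box CANNTG (72.3%, 4 of these 10) and CCAAT (37.4%, 7 of these 10). The matches are letters in a window and were not tested for binding. Hes5 held 2 RBPJ cores and Vim TATAAA, Fabp7 had a time course of its own, and Neurog2 and Eomes were the pair that fell furthest. The promoters of these 5 genes are shown. Each runs 5′ to 3′ on the plus strand from 250 bases before to 30 bases after the start, with the RBPJ core, the N-box and the TATA box, read on either strand, in capitals. They lie at chr4:154960673-154960952 (Hes5), chr2:13574061-13574340 (Vim), chr10:57784673-57784952 (Fabp7), chr3:127632886-127633165 (Neurog2) and chr9:118477939-118478218 (Eomes).
Hes5: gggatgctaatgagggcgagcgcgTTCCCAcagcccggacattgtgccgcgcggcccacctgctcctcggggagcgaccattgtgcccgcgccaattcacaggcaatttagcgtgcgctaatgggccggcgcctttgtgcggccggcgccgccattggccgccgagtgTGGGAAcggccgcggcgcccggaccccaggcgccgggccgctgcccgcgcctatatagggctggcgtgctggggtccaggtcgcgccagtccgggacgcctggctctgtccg
Vim: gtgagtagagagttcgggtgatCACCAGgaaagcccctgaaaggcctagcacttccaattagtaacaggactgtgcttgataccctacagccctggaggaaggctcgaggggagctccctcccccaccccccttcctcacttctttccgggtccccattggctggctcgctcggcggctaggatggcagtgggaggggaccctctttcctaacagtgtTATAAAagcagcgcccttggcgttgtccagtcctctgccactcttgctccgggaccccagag
Fabp7: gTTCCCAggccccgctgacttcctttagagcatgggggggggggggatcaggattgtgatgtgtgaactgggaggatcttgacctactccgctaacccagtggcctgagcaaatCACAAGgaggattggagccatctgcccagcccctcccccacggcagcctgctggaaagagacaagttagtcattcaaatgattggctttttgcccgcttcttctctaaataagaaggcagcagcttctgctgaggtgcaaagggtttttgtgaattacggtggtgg
Neurog2: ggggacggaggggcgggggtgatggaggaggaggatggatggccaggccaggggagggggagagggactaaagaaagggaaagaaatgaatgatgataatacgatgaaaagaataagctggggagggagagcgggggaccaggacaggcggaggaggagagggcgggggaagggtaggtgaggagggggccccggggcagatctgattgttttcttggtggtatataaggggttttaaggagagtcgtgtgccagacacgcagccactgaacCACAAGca
Eomes: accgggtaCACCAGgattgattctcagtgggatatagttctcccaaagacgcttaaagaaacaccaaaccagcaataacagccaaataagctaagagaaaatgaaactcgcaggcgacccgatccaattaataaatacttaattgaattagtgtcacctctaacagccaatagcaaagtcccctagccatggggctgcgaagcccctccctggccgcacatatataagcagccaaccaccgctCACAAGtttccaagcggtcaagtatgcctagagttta

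The libraries held 35507165 to 43907318 counts each, with medians of 38621490 in wild-type and 38680536 in Setd1a+/- mice. Levels are counts relative to the library total (CPM), scaled for composition by the trimmed mean of M-values (TMM), and levels compared between genes are the same per kilobase of exon (FPKM). Counts of Setd1a were not lower in Setd1a+/- libraries, with a log2 fold change of 0.10 ± 0.03 (SE, adjusted p = 0.00675, edgeR quasi-likelihood test) and 96.9 to 117 CPM at E18 against 85.4 to 100.01 in wild-type mice. By age, the log2 fold change of Setd1a ran from −0.03 ± 0.05 at P70 to 0.19 ± 0.05 at E18. The Setd1a counts sum over all exons of the gene and do not check the deletion, and genotypes are as labelled. 2 wild-type libraries, the fifth of E14 and the second of E18, had over 1000 counts of Xist, an RNA of female cells. Wild-type replicate 2 at P7 stood apart in several gene groups, given below, and results that rest on these 3 libraries are given with and without them.

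Across age the genes fell by different amounts: the wild-type mean at E14 was 182 times that at P70 for Neurog2 and 27 times for Nes, whereas Hes1 changed 2.27 times in all. Between E14 and E18 in wild-type mice, 9 of 10 were lower at E18, where 34.1% of all tested genes were lower (adjusted p under 0.05, edgeR quasi-likelihood test with Benjamini-Hochberg adjustment over 16330 genes). Fabp7 was higher, as were 31.8% of all tested genes. The same 9 genes were lower and Fabp7 higher in Setd1a+/- mice, against 32.5% and 32.0% of tested genes. From E18 to P7, 6 genes fell further in wild-type mice, against 33.4% of tested genes, and none rose, against 33.9%, and from P7 to P35, 6 fell, against 34.3%, while Neurog2 rose, against 32.6%. In Setd1a+/- mice 7 fell from E18 to P7 (35% of tested genes), Hes1 rose (32.7%), and from P7 to P35 5 fell (33.3%) and Neurog2 rose (34.5%). Here the falls differed in Pax6, called from E18 to P7 only in Setd1a+/- mice and from P7 to P35 only in wild-type mice. Wild-type replicate 2 at P7 was high in Pax6 and enters these counts and the medians below. Without the 3 libraries that stood apart Pax6 was called lower from E18 to P7 in wild-type and from P7 to P35 in Setd1a+/- mice. Between P35 and P70 none of the 10 was called in either genotype by edgeR, DESeq2 or limma-voom, where edgeR called 1.06% of tested genes in wild-type and 2.98% in Setd1a+/- mice, and 1 of the 10, Neurog2, had an unadjusted p under 0.05 in each genotype, against 11.3% of tested genes in wild-type and 16.2% in Setd1a+/- mice. The median log2 fold change of the 10 genes in wild-type mice was −1.20 from E14 to E18, −0.88 from E18 to P7, −0.86 from P7 to P35 and −0.17 from P35 to P70, while the median over all tested genes stayed between −0.01 and 0.00 in these steps. In Setd1a+/- mice the medians of the 10 genes were −1.65, −1.12, −0.52 and 0.02, and those over all tested genes lay between −0.01 and 0.01.

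**Figure D1:**
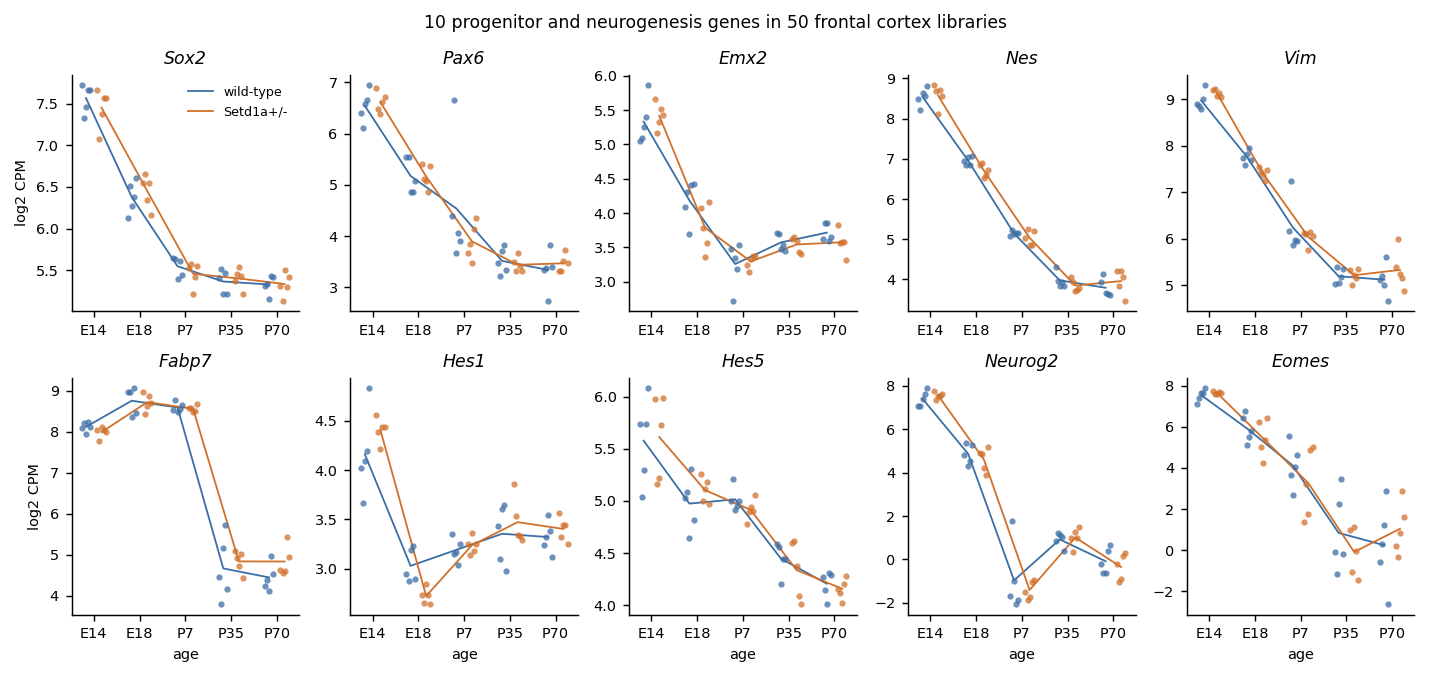
Level of each of the 10 genes (log2 CPM, vertical axes differ between panels) against age in 50 libraries; each point is 1 library, lines join the means of 5 libraries, blue for wild-type and orange for Setd1a+/-. 9 genes were lower at E18 than at E14, Fabp7 stayed high until P7, and the single high wild-type point at P7 in Pax6, Vim and Neurog2 is replicate 2.

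Per length of transcript, Fabp7 was the most abundant of the 10 in wild-type mice from E14 to P7, with a mean of 223 FPKM ± 17 (SD, n = 5) at E14 and 353 ± 76 at E18. At P35 it was at 22.8 ± 12.8 FPKM beside Sox2 at 20.1 ± 1.95, and without replicate 4 the order was the other way, at 17.9 ± 7.52 and 19.7 ± 2.08. At E14 it was followed by Vim at 106 FPKM, Sox2 at 92.7, Neurog2 at 78.3, Nes at 58.7, Eomes at 45.6 and Hes5 at 36.1, and Emx2, Hes1 and Pax6 were lowest at 13.7, 9.08 and 8.12 FPKM. By P70 the order had changed: Sox2 (19.5 FPKM), Fabp7 (17.8) and Hes5 (13.5) led, and Pax6, Eomes and Neurog2 were last at 0.888, 0.551 and 0.431 FPKM. Neurog2 thus went from the fourth place at E14 to the last at P70, and Hes5 from the seventh to the third.

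Among the transcription factors of radial glia, Sox2, which keeps neural progenitors undifferentiated and is also present in astrocytes (chromosome 3, 34650405 to 34652461, build GRCm38, as all gene positions here, which lie on the plus strand), kept a clear level in the adult tissue. Its CPM in wild-type mice was 161 to 211 at E14, 69.7 to 97.5 at E18, 41.98 to 50.2 at P7 and 35.5 to 45.7 at P35 and P70 together. The first 2 steps were called, with log2 fold changes of −1.19 ± 0.10 (SE) and −0.84 ± 0.10 (adjusted p = 5.07e-10 for the second), and P7, P35 and P70 did not differ from their neighbour in order beyond their spread. The mean at E14 was 4.74 times that at P70.

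Pax6, which specifies dorsal radial glia (chromosome 2, 105668900 to 105697364), fell by 1.36 on the log2 scale from E14 to E18 (SE 0.30, adjusted p = 0.000141) and was 9.14 times as high at E14 as at P70. At E14 the 5 wild-type libraries, replicates 1 to 5, had 85.1, 69.2, 96.1, 101 and 123 CPM, and at E18 they had 46.8, 46.4, 29.0, 29.0 and 33.5. The step from E18 to P7 was not called in wild-type mice, with a log2 fold change of −0.15 ± 0.30, whereas limma-voom called it at −0.60 ± 0.26 (adjusted p = 0.0418). That value rests on replicate 2 at P7, with 101 CPM against 12.7 to 20.9 in the other 4, and without the 3 libraries that stood apart the log2 fold change was −1.08 (adjusted p = 1.38e-06). In Setd1a+/- mice the step was −1.25 ± 0.31 with all libraries (adjusted p = 0.000535).

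Emx2, a patterning factor of the dorsal cortex (chromosome 19, 59458372 to 59465357), fell in 2 steps and then rose slightly. The mean of the 5 wild-type libraries went from 41.1 CPM ± 10.2 (SD) at E14 over 18.4 ± 3.54 at E18 to 9.69 ± 2.00 at P7, and stood at 11.9 ± 1.02 and 13.1 ± 1.18 at the adult ages P35 and P70. P7 was its lowest age. The rise from P7 to P70 was called in wild-type mice (log2 fold change 0.44 ± 0.15, adjusted p = 0.00713), whereas neither of its 2 steps was. It was 0.33 ± 0.14 (adjusted p = 0.043) without wild-type replicate 2 at P7, the library with the least Emx2. In Setd1a+/- mice the same contrast gave 0.29 ± 0.15 (adjusted p = 0.0737), and 0.28 ± 0.12 without the 3 libraries that stood apart (adjusted p = 0.0389). Exons of Emx2os, a gene on the opposite strand, share 8.79% of the exonic bases of Emx2, and counting used no strand; counts of Emx2os were 11.7% to 16.3% of those of Emx2 at E14 and 27.04% to 46.5% at P35.

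Nes (chromosome 3, 87971078 to 87980451) encodes the intermediate filament by which neural progenitors are usually recognised, and it fell at each step up to P35. Wild-type means were 377, 124, 35.4, 15.8 and 13.95 CPM from E14 to P70, and the mean at E14 was 27 times that at P70. The 3 steps up to P35 had log2 fold changes of −1.60, −1.81 and −1.16 with SEs of 0.12, all called. The coefficient of variation within a group was 3.74% (wild-type mice at P7) to 19.7% (Setd1a+/- mice at P70).

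Vim (chromosome 2, 13573927 to 13582826) encodes vimentin, the filament of radial glia that endothelial cells and reactive astrocytes also make, and it ran close to Nes. Its wild-type means were 503, 217, 81.0, 36.7 and 35.4 CPM, the P7 mean including 150.5 CPM in replicate 2 against 58.5 to 71.2 in the other 4. The 3 steps up to P35 were called, at −1.22, −1.42 and −1.14 on the log2 scale. At P70 its libraries spread more widely, with 25.4 to 48.5 CPM in wild-type and 29.2 to 63.6 CPM in Setd1a+/- mice, and the highest of the latter, replicate 2, had 416 CPM of 8 summed vascular markers against 310 to 379 in the other 4.

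Fabp7 (chromosome 10, 57784881 to 57788450) encodes a fatty acid-binding protein that is used by radial glia and later by immature astrocytes, and it took another course. It rose from 279 CPM ± 21.8 at E14 to 441 ± 95.2 at E18 (log2 fold change 0.66 ± 0.20, adjusted p = 0.00328), was 387 ± 31.6 at P7, which did not differ from E18 beyond the spread, and fell to 28.5 ± 16.02 at P35 and 22.3 ± 5.53 at P70. From P7 to P35 it fell by 3.76 on the log2 scale (SE 0.22, adjusted p = 2.40e-19). At E18 the wild-type libraries fell into a higher set of 498, 500 and 532 CPM and a lower pair of 328 and 349. The Setd1a+/- libraries, at 347 to 500 CPM, lay in the same range.

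Hes1 (chromosome 16, 30064384 to 30067796) showed the smallest change over age of the 10, 2.27 times between its highest and lowest wild-type means, and reached its lowest level at E18. In wild-type mice it averaged 18.5 CPM ± 5.89 at E14 and 8.16 ± 0.985 at E18, and after birth 9.11 ± 0.732 (P7), 10.4 ± 2.10 (P35) and 9.997 ± 1.13 (P70). After E14 no neighbours in this order differed beyond their spread, although P35 was higher than E18 (log2 fold change 0.34 ± 0.13, adjusted p = 0.0186). In Setd1a+/- mice the rise from E18 to P7 was called (0.52 ± 0.14, adjusted p = 0.000843). Whether this step differed between the genotypes was not tested.

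Hes5, a direct target of Notch in radial glia (chromosome 4, 154960923 to 154962371), declined slowly. Its wild-type range was 32.9 to 67.6 CPM at E14 and 24.9 to 39.5 CPM at E18, then 30.03 to 37.1 (P7), 18.4 to 23.97 (P35) and 16.1 to 19.8 CPM (P70). E18 and P7 were alike within the spread (log2 fold change 0.03 ± 0.14), and the steps on either side were called (−0.63 ± 0.14 from E14 to E18 and −0.57 ± 0.14 from P7 to P35). At E14 Hes5 was the most variable of the radial glial genes within Setd1a+/- mice, with a coefficient of variation of 26.6%. Exons of Gm20421, on the opposite strand, share 31.8% of its exonic bases, and counts of Gm20421 were 62.7% to 76.5% of those of Hes5 over the 5 ages; a fragment over both was counted for each.

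Neurog2, which commits radial glia to the neuronal lineage (chromosome 3, 127633135 to 127635631), fell the furthest. It went from 174 CPM ± 42.9 at E14 to 30.2 ± 9.36 at E18 and to under 0.5 CPM in 4 of 5 wild-type libraries at P7. The log2 fold changes were −2.53 ± 0.28 (adjusted p = 1.80e-10) and −5.01 ± 0.37 (adjusted p = 1.00e-15), and the mean at E14 was 182 times that at P70. Its lowest mean was at P7, with 0.221 to 0.471 CPM in Setd1a+/- mice. With all libraries edgeR did not call P70 against P7. The log2 fold changes were 0.05 ± 0.50 in wild-type (adjusted p = 0.929) and 1.21 ± 0.65 in Setd1a+/- mice (adjusted p = 0.0925). At P35 Neurog2 stood at 1.27 to 2.27 CPM in wild-type and 1.21 to 2.76 CPM in Setd1a+/- mice. These levels were above every P7 library apart from wild-type replicate 2. The rise from P7 to P35 was 2.58 ± 0.54 in Setd1a+/- mice (adjusted p = 5.25e-05) and 1.01 ± 0.45 in wild-type mice (adjusted p = 0.0448), and the latter was lost with library size alone as the scaling (adjusted p = 0.0781), with any count as the filter (adjusted p = 0.0523) and without any 1 of 8 wild-type libraries, 4 at P35 and 4 at P7 (adjusted p of 0.0543 to 0.137). Without wild-type replicate 2 at P7 the wild-type rise was 2.74 ± 0.46 (adjusted p = 1.10e-06) and the fall from E18 to P7 was −6.75 ± 0.36 (adjusted p = 1.41e-20). Its lowest library, wild-type replicate 4 at P7, still held 7 counts, and the other 8 low libraries of that age held up to 18.

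Eomes, the marker of intermediate progenitors (chromosome 9, 118478212 to 118486132), had the widest relative spread between animals of the 10 genes at E18, P35 and P70. At E14 it was 139, 171, 201, 201.955 and 235 CPM in wild-type mice and 215, 193.6, 197, 207 and 201 CPM in Setd1a+/- mice. By E18 the libraries already differed 5.75 times from lowest to highest, with 86.2, 110, 34.3, 45.4 and 55.4 CPM in wild-type and 76.9, 32.7, 19.1, 40.5 and 87.8 CPM in Setd1a+/- mice. At P7 the range over the 10 libraries was 2.57 to 46.4 CPM, at P35 0.306 to 10.9 and at P70 0.109 to 7.36 CPM. Within-group coefficients of variation were 72.4% at P7 and 127% at both P35 and P70 in wild-type mice. The falls from E14 to E18 (−1.52 ± 0.58, adjusted p = 0.0195), E18 to P7 (−1.63 ± 0.59, adjusted p = 0.0141) and P7 to P35 (−2.60 ± 0.68, adjusted p = 0.000816) were called in wild-type mice, the first not by DESeq2 (adjusted p = 0.0617) and the second not without the 3 libraries that stood apart (adjusted p = 0.0849).

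After birth, Eomes is best known from projection neurons of the olfactory bulb, which also carry Tbx21 and Cdhr1, and the level of these markers moved with it. The summed CPM of both genes was 13.9 to 216 at P7, 7.40 to 50.6 at P35 and 7.82 to 37.4 at P70, and neither gene was at 0 in any library. Across the 10 libraries of an age, Pearson's r of log2 Eomes CPM with the log2 sum was 0.79 at P7, 0.96 at P35 and 0.77 at P70, each over libraries that share their scaling. Wild-type replicate 1 at P7 had the most Eomes (46.4 CPM) and the largest sum (216 CPM). At P35, replicate 4 of the wild-type mice had both (10.9 and 50.6 CPM), and at P70 replicates 4 of the wild-type mice (7.28 and 37.4 CPM) and of the Setd1a+/- mice (7.36 and 36.5 CPM) stood above the other 8. Before birth r was 0.51 at E14, where Eomes differed only 1.68 times from lowest to highest library, and 0.69 at E18. Whether r differed between the ages was not tested. The share of Eomes counts that came with these markers was not tested. Exons of Gm33460 share 2.84% of the exonic bases of Eomes.

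**Figure D2:**
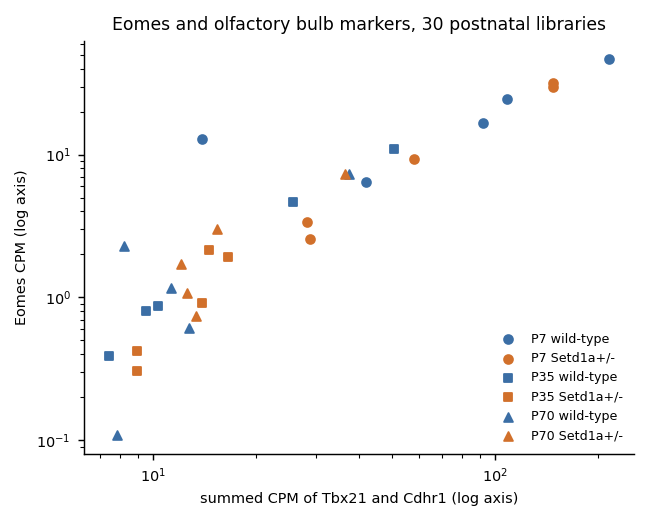
Eomes CPM against the summed CPM of the olfactory bulb markers Tbx21 and Cdhr1 in the 30 postnatal libraries, both on log axes; colour gives the genotype and shape the age. The correlation within an age (r of 0.77 to 0.96) leaves exceptions, such as wild-type replicate 3 at P70 (2.29 CPM of Eomes at a sum of 8.19, against 0.745 CPM at 13.3 in Setd1a+/- replicate 2), and wild-type replicate 2 at P7, with 12.8 CPM of Eomes at a sum of 13.9, lies above the rest.

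The other progenitor and Notch genes gave the setting of these time courses. Of 14 further radial glial genes, 10 fell and 3 rose from E14 to E18 in wild-type mice, with Sox3 (log2 fold change −2.70), Nr2e1 (−2.18), Gli3 (−2.16) and Fgfr3 (−1.82) furthest, against 34.1% and 31.8% of all tested genes, and 9 of 10 further neurogenic genes fell, led by Neurog1 (−3.81), Nhlh1 (−3.16), Neurod4 (−2.52) and Rhbdl3 (−2.25). The 6 proliferation genes fell in each of the 3 steps up to P35 in wild-type mice, against 34.1%, 33.4% and 34.3% of all tested genes, and in Setd1a+/- mice 6, 6 and 5 of them fell (32.5%, 35% and 33.3%). From P7 to P35, 7 of the 14 radial glial genes rose and 3 fell, against 32.6% and 34.3% of all tested genes. Tnc fell most (−4.19), Sox3 by 1.81 and Ptprz1 by 1.47, and Hopx rose by 1.00. Among Notch ligands, Dll3 and Dll1 fell from E14 to E18 (−1.55 and −1.30) and Jag2 rose (0.81). Among the 4 receptors Notch1, Notch2 and Notch3 fell (−1.46, −1.002 and −0.94). Of 9 modulators and nuclear partners 6 fell and 1 rose, with Mfng (−1.99), Rbpj (−1.07), Lfng (−0.80) and Maml1 (−0.70) among those that fell. Of 5 other targets and Hes/Hey factors, Nrarp (−0.95), Hey1 (−0.71) and Hes6 (−0.68) fell, as did Hes1 and Hes5, and Hey2 rose (1.06). Hey1 then rose from E18 to P7 (0.83) and from P7 to P35 (1.00), while Hes6 fell in both (−0.95 and −1.56). These values of Notch genes are from wild-type mice. From E14 to E18 in Setd1a+/- mice, 4 of the 5 ligands fell and 1 rose, and all 4 receptors fell. Of the 9 modulators 5 fell and 1 rose, and of the 5 other targets and Hes/Hey factors 3 fell and 0 rose. Of all tested genes 32.5% fell and 32.0% rose in that step.

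The genes whose log2 CPM ran most like each member over the 25 wild-type libraries were looked for among all tested genes; these libraries share the 5 ages, and the values of Pearson's r describe likeness over age above all. Nes was most like Cdc23 (r = 0.995), Ddx19a (0.994) and Msi1 (0.993), and Vim most like Cdc25a (0.991), Cbx2 (0.990) and Fam110a (0.990). Pax6 was most like Nxph4 (0.979), Chd7 (0.977) and Zfp521 (0.973), and Sox2 most like Rpgrip1 (0.989), Plagl2 (0.987) and Ssbp1 (0.987). For Emx2 they were Nr2e1 (0.953), B230104I21Rik (0.950) and Lhx2 (0.950), of which Nr2e1 and Lhx2 are radial glial genes themselves. Fabp7 ran with Mkrn3 (0.983), Dpysl3 (0.981) and Epb41l4a (0.980), Neurog2 with Trim59 (0.982), Hunk (0.979) and Pcf11 (0.976), Eomes with Tfap2c (0.966), Sall3 (0.958) and Taf1c (0.944), and Hes5 with Psmb3 (0.953), Dmrta1 (0.943) and Nek6 (0.930). Hes1 had no gene above 0.9, its nearest being LTO1 (0.883), Ccnd1 (0.876) and Hbb-bh1 (0.875). Over the 25 Setd1a+/- libraries, which played no part in the choice, the same 30 pairs had r from 0.802 (Hes1 and Hbb-bh1) to 0.993 (Nes and Cdc23).

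The study compared the genotypes over all expressed genes, overall and by age, and the same comparisons are given here for these 10. With age as a covariate, none of the 10 was called between the genotypes, against 4.43% of tested genes, and none had an unadjusted p under 0.05, against 14.5%. The log2 fold changes ran from −0.33 ± 0.29 (Eomes) to 0.03 ± 0.09 (Fabp7), with adjusted p between 0.564 and 0.947. For Sox2 the interval of 2 SE on either side was −0.10 to 0.07, for Nes −0.17 to 0.06 and for Vim −0.21 to 0.11, while for Eomes it was −0.90 to 0.25. In the test for an age by genotype interaction none of the 10 was called, nor any of the tested genes (0.0%), and 1 of the 10, Pax6, had an unadjusted p under 0.05, against 6.72% of tested genes. DESeq2 and limma-voom called none of the 10 in either test, nor at any single age, nor in the difference between E18 and E14.

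**Figure D3:**
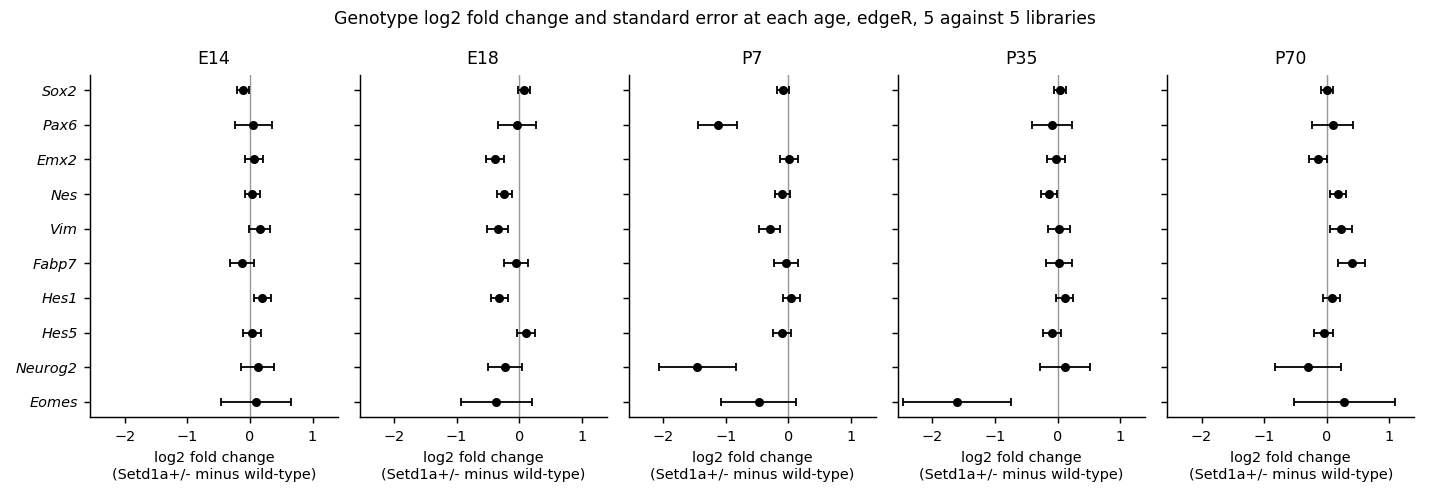
Log2 fold change between Setd1a+/- and wild-type libraries for each gene at each age; points are edgeR estimates from 5 against 5 libraries, bars are 1 standard error, and values below 0 are lower in Setd1a+/- mice. No point passed the adjusted threshold; the estimates of Pax6 (−1.13) and Neurog2 (−1.45) at P7 and of Eomes at P35 (−1.61) rest on 1 wild-type library each, and the widest bar is that of Neurog2 at P7 and of Eomes at the other 4 ages.

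At E14, none of the 10 was called, against 0.129% of tested genes, and none had an unadjusted p under 0.05, against 11.6%. 8 of the 10 log2 fold changes were above 0, with a median of 0.06, where the median over all tested genes was −0.03. Hes1 had the largest, 0.20 ± 0.13 (adjusted p = 0.614). The E14 wild-type libraries had 16.2, 12.6, 17.05, 18.2 and 28.4 CPM of Hes1, and the Setd1a+/- libraries 23.6, 20.9, 18.5, 21.6 and 21.7 CPM. Wild-type replicate 5 was thus higher than every Setd1a+/- library and the other 4 wild-type libraries were lower than every one of them. The same library, 1 of the 2 with Xist counts, was the highest of all 10 at E14 for 7 of the 10 genes, Emx2, Eomes, Hes1, Hes5, Neurog2, Pax6 and Vim. Without it the log2 fold change of Hes1 was 0.41 (adjusted p = 0.0379), and no other gene of the 10 was called, while the number called among all tested genes went from 21 to 740 (4.53%). For Vim the 5 wild-type values were 474, 463, 441, 509 and 628 CPM and the Setd1a+/- values 582, 590, 535, 557 and 531 CPM, which gives the same arrangement, at a log2 fold change of 0.25 without replicate 5 (adjusted p = 0.459).

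At E18, 3 of the 10 had an unadjusted p under 0.05 and were lower in Setd1a+/- mice, Emx2, Hes1 and Nes, against 11.4% of tested genes in either direction, and none was called, against 0.11%. Without the 3 libraries that stood apart 1.18% of tested genes were called and again none of the 10. 8 of the 10 log2 fold changes were below 0, with a median of −0.23, where the median over all tested genes was 0.02. Emx2 was at −0.39 ± 0.14 (adjusted p = 0.265), Hes1 at −0.31 ± 0.14 (adjusted p = 0.355), Nes at −0.24 ± 0.12 (adjusted p = 0.439) and Vim at −0.34 ± 0.17 (adjusted p = 0.443), in the edgeR quasi-likelihood test. Sox2 and Hes5 were on the other side, at 0.07 ± 0.10 and 0.12 ± 0.14.

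In 2 of the 10 genes, Hes1 and Vim, every Setd1a+/- library at E18 lay below every wild-type library, an arrangement in either direction that 2.22% of tested genes showed. Hes1 was 7.68, 7.28, 9.07, 9.36 and 7.39 CPM in wild-type and 6.62, 6.22, 7.15, 6.60 and 6.20 CPM in Setd1a+/- mice, a gap from 7.28 down to 7.15 CPM at the nearest. Vim was 212.9, 191, 226, 246 and 207 CPM in wild-type and 186, 173, 165, 152 and 178 CPM in Setd1a+/- mice. Emx2 overlapped, with 16.9, 19.8, 12.9, 21.2 and 21.3 CPM against 16.7, 13.7, 10.2, 11.8 and 17.9, as did Nes with 114 to 135 against 91.6 to 119 CPM. At E14, P7, P35 and P70 none of the 10 was free of overlap, where 0.784%, 2.22%, 2.25% and 1.79% of tested genes were.

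Vascular cells also make Vim and Nes, and the levels of vascular markers are given beside them. The sum over 8 genes (Cldn5, Pecam1, Flt1, Kdr, Pdgfrb, Rgs5, Cdh5 and Tek) was 437, 292, 626, 548 and 294 CPM in wild-type and 297, 241, 284, 335 and 282 CPM in Setd1a+/- mice, with overlap between the genotypes, and none of the 8 was called at E18 (lowest adjusted p = 0.105). All 8 log2 fold changes were nevertheless below 0 at E18, from −1.14 to −0.09 with a median of −0.60. The sum of 5 fibroblast markers was 70.4 to 748 CPM in wild-type and 244 to 433 CPM in Setd1a+/- mice. For 4 choroid plexus markers it was 3.66 to 229 and 2.82 to 5.68 CPM. All 5 fibroblast markers (median log2 fold change −0.56) and 3 of the 4 choroid plexus markers were below 0 as well, none called. The part of these cells in the E18 values was not tested.

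**Figure D4:**
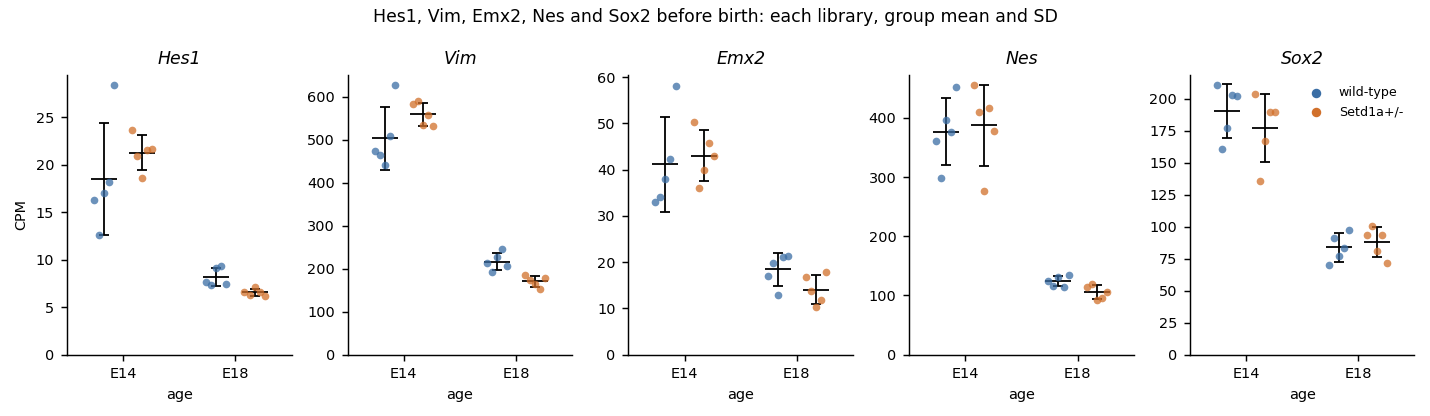
CPM of Hes1, Vim, Emx2, Nes and Sox2 at E14 and E18; points are libraries, the horizontal mark is the mean of 5 and the bar the SD. At E18 the Setd1a+/- points of Hes1 and Vim lie below all wild-type points, and at E14 the highest wild-type point of Hes1, Vim and Emx2 is replicate 5.

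The genotype difference at E18 was then set against that at E14. None of the 10 was called in this difference, against 1.13% of tested genes, and 3 had an unadjusted p under 0.05, against 14%: Hes1 at −0.51 ± 0.19 (adjusted p = 0.173), Emx2 at −0.45 ± 0.20 (adjusted p = 0.28) and Vim at −0.50 ± 0.24 (adjusted p = 0.344). The values rest in part on the E14 library with Xist counts: without it Hes1 was at −0.72 (adjusted p = 0.00819) and Emx2 at −0.61 (adjusted p = 0.0364), where the number called among all tested genes went from 185 to 1261 (7.72%). Without all 3 libraries that stood apart Hes1 was at −0.76 (adjusted p = 0.00433), Vim at −0.63 (adjusted p = 0.0227) and Emx2 at −0.58 (adjusted p = 0.0271), and that setting, chosen after the data were seen, raised the number called in all to 1982. With a term for the libraries with Xist counts in the model, none of the 10 was called in this difference or at E14. The numbers called in all were then 180 and 16. Of the 8 vascular markers 6 were called lower in this difference with all libraries, with Tek (log2 difference −2.004) and Cldn5 (−1.93) among them. Without Setd1a+/- replicate 2 at E14 none of the 8 was called (lowest adjusted p = 0.155, log2 differences of −1.27 to −0.25), the number called in all fell to 2, and Hes1 was at −0.52 (adjusted p = 0.413), Emx2 at −0.51 (adjusted p = 0.438) and Vim at −0.48 (adjusted p = 0.553). The 5 fibroblast markers, of cells that also make Vim, had log2 differences of −2.63 to −1.99 with a median of −2.34, none called (lowest adjusted p = 0.102), and their E14 sums were 26.0 to 1529 CPM in Setd1a+/- mice, highest in replicate 2, and 11.2 to 373 CPM in wild-type mice. E14 Setd1a+/- replicates 2 and 4 had vascular sums of 964 and 365 CPM against 205.7 to 220 in the other 3 and 198 to 274 in wild-type mice; replicate 2 had the highest Vim of its group (590 CPM, against 531 to 582 in the other 4), and replicate 4, at 557 CPM, lay inside the range of the rest, as did the Hes1 of both (20.9 and 21.6 CPM).

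At P7, none of the 10 was called, against 0.735% of tested genes, and 2 had an unadjusted p under 0.05, against 8.87%: Pax6 at −1.13 ± 0.31 (adjusted p = 0.0833) and Neurog2 at −1.45 ± 0.61 (adjusted p = 0.42). Pax6 was 20.9, 101, 12.7, 16.7 and 15.0 CPM in wild-type and 12.7, 14.3, 11.1, 17.7 and 20.4 CPM in Setd1a+/- mice. Neurog2 was 0.261, 3.36, 0.442, 0.189 and 0.221 CPM in wild-type and 0.298, 0.221, 0.251, 0.438 and 0.471 CPM in Setd1a+/- mice. In both the second wild-type library was 4.81 and 7.13 times the highest of the other 9, which overlapped between the genotypes. Without it Pax6 was at −0.10 ± 0.18 and Neurog2 at 0.28 ± 0.63, both with an adjusted p of 1. When 1 of the other 4 wild-type libraries was left out in its place, Pax6 was called, with adjusted p of 0.0438, 0.0141, 0.0288 and 0.0204 without replicates 1, 3, 4 and 5, settings in which 0.912%, 1.29%, 0.796% and 1.22% of tested genes were called.

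The same P7 library had the highest Vim (150.5 CPM, 2.11 times the next), Fabp7 (436 CPM) and Hes5 (37.1 CPM) of its age and the lowest Emx2 (6.55 CPM against 8.79 to 11.5), while Sox2, Hes1 and Nes lay within the range of the other 9. Other gene groups set it apart too. Its sum of 4 choroid plexus markers was 619.9 CPM against 0.774 to 2.30, that of 10 neurogenic genes 542 against 85.5 to 97.5, that of 6 proliferation genes 311 against 98.4 to 125 and that of 7 oligodendrocyte genes 1463 against 455 to 508. Ganglionic eminence genes (85.4 against 189 to 312 CPM) and genes of newborn cortical neurons (2086 against 2987 to 3293 CPM) were lowest in it. 4 of the 10 neurogenic genes were called lower in Setd1a+/- mice at P7, Nhlh1 (−4.39), Neurod1 (−1.78), Mfap4 (−1.63) and Insm1 (−1.49), and of the choroid plexus markers Ttr and Otx2 were. Without this library no gene of the neurogenic, choroid plexus or oligodendrocyte lists was called at P7, each with an adjusted p of 1, and the number called among all tested genes fell from 120 to 7.

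**Figure D5:**
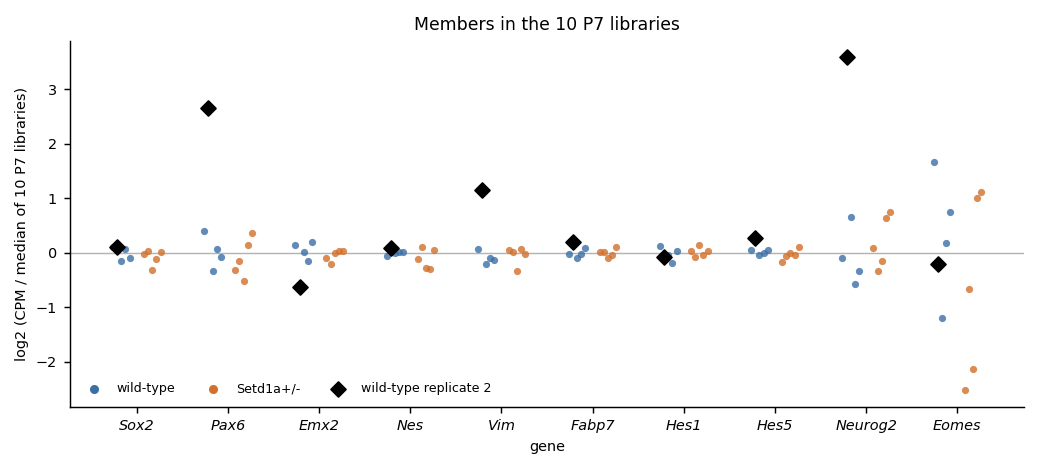
Each of the 10 P7 libraries as log2 of its CPM over the median of the 10, for each gene; black diamonds are wild-type replicate 2. That library stands above the other 9 for Pax6, Vim and Neurog2 and below them for Emx2, and the remaining points of the genotypes overlap.

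At P35 and P70, none of the 10 was called or had an unadjusted p under 0.05 at either age, where 0.0% and 0.233% of tested genes were called and 3.37% and 6.55% had such a p. The lowest p at P35 was that of Eomes, at −1.61 ± 0.87 (adjusted p = 1), with 0.875, 0.387, 4.65, 10.9 and 0.808 CPM in wild-type and 1.93, 0.424, 2.16, 0.909 and 0.306 CPM in Setd1a+/- mice; its highest library, wild-type replicate 4, was the one with the most olfactory bulb markers, and without it the log2 fold change was −0.53 ± 0.95 (adjusted p = 1). The lowest at P70 was that of Fabp7, at 0.40 ± 0.21 (adjusted p = 0.804), with 18.7, 20.8, 17.3, 31.4 and 23.0 CPM in wild-type and 24.8, 23.6, 24.1, 42.955 and 30.9 CPM in Setd1a+/- mice. In both genotypes replicate 4, the library with the most olfactory bulb markers, had the most Fabp7. Sox2 was the most precise of the 10, at 0.04 ± 0.10 and 0.01 ± 0.10.

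None of the 5 Notch ligands, 4 receptors, 9 modulators and 5 other targets and Hes/Hey factors was called between the genotypes. Nor was any of the 14 further radial glial genes or the 6 proliferation genes. This held with age as a covariate, at any age, and in the difference between E18 and E14. The shares of all tested genes called in these comparisons were 4.43% with age as a covariate, 0.0% to 0.735% at the single ages and 1.13% in the difference, and a count of 0 in lists of 4 to 14 genes is near that background.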

How the data were processed

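Total RNA from frontal cortex of 50 mice was sequenced as poly(A)-selected, paired-end libraries. According to the study's methods, the authors trimmed reads with Trimmomatic, aligned them with STAR to GRCm38 and counted per gene with featureCounts. Per the file headers this was featureCounts v1.4.6-p2, over exons of Ensembl release 102. The deposited counts are whole numbers, not normalised. By the same headers, counting used no strand, and fragments over several genes counted for each. Depth ranged from 35507165 to 43907318 counts, and the lowest count of a member in a library was 4 (Eomes at P70).

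Symbols came from GENCODE vM21. Protein-coding genes with a minimum count of 10 in 5 libraries were kept by filterByExpr (16330 genes). All 50 libraries entered 1 model with a term for each of the 10 groups, fitted with TMM scaling and the quasi-likelihood test of edgeR 4.0.16 (R 4.3.3), and p-values were adjusted by Benjamini-Hochberg over all tested genes with a threshold of 0.05. Standard errors were derived from the log2 fold change and its test statistic. A model with age as a covariate gave the overall genotype effect. Likeness used log2 CPM with a prior count of 2. Alternatives were DESeq2 1.42.0, limma-voom 3.58.1, other scalings and filters, a replicate block, an Xist term, each age alone and leaving out libraries. Figures used Python 3.11.15 and matplotlib 3.10.9. The scripts were tested on simulated data.

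The 10 genes, the other gene lists and the tests were chosen with earlier results of these data known. Named genes were the 10 members, up to 4 called genes of each other list by size or p-value, the 3 genes most like each member, and genes whose exons overlap a member. Groups follow the labels; the labels do not name litters, and p-values measure the spread between these animals.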

Additional observations from a re-analysis of the deposited data

Results flagged for a closer look

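Within each of the 100 sets of 5 libraries (10 genes in 10 groups), the gap on the log2 CPM scale between the most extreme library and its neighbour was compared with the range of the group by Dixon's test at a critical value of 0.71, which chance alone passes in about 1 in 20 groups, and 5 passed. Wild-type replicate 2 at P7 stood above the other 4 wild-type libraries of its age in Pax6 (100.6 CPM), Vim (150.5 CPM) and Neurog2 (3.36 CPM). In Nes, wild-type replicate 1 at P35 was high with 19.8 CPM against 14.3 to 15.5 in the other 4. In Vim, Setd1a+/- replicate 3 at P7 was low with 53.8 CPM against 66.8 to 70.6 in the other 4. That library had the lowest level of its age in 4 of the 10 genes.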

How the results depend on the processing

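No direction among the calls was reversed under any alternative, and the calls in the overall genotype effect, the interaction and the genotype effects at E18, P35 and P70 stayed at 0 of 10 under all of them, leaving out single libraries included. The count at E14 was 0 to 1 without single libraries, with Hes1 called without wild-type replicate 5, and 1 without the 3 libraries that stood apart, an alternative added after the data were seen. The count at P7 was 0 to 1, with Pax6 called without wild-type replicate 1, 3, 4 or 5. The count in the difference between E18 and E14 was 0 to 2, and 3 without the 3 libraries. Between P35 and P70 in Setd1a+/- mice it was 0 to 1, and 1 without the 3 libraries, Neurog2 being called at −1.37 both without wild-type replicate 2 at P7 (adjusted p = 0.0139, edgeR) and without the 3 libraries (adjusted p = 0.00892). The counts of calls without single libraries were 9 to 10, 6 to 7, 6 to 8 and 0 in the 4 steps in wild-type and 10, 8 and 6 to 7 in the first 3 in Setd1a+/- mice. Among single genes in wild-type mice, the fall of Eomes from E14 to E18 was lost without replicate 3 at E18. The rise of Neurog2 from P7 to P35 was lost without replicate 1, 2, 3 or 4 at P35 or 1, 3, 4 or 5 at P7. It was also lost with any count as the filter (adjusted p = 0.0523). Sox2 was called from P7 to P35 with library sizes alone (−0.28, adjusted p = 0.0141). The step of Emx2 from P7 to P35, uncalled in the main edgeR fit (adjusted p = 0.0709), was called higher with 10 CPM (adjusted p = 0.0484). It was also called without replicate 5 at E14 or 1 or 5 at P7. In Setd1a+/- mice Pax6 was called lower from P7 to P35 without the 3 libraries (adjusted p = 0.0081) or replicate 2 of the P7 wild-type libraries, and Hes1 higher without replicate 5 of the E14 wild-type libraries. The adjusted p over all alternatives ran from 0.126 to 0.655 for Hes1, 0.121 to 0.690 for Vim and 0.134 to 0.558 for Emx2 at E18, from 0.0318 to 1 for Hes1 at E14, and from 0.0141 to 1 for Pax6 and 0.164 to 1 for Neurog2 at P7. Over all tested genes, the number called moved by over 1.5 times under several alternatives. At E14 it was 21, and 114 with DESeq2, 3 with library sizes alone, 9 with a minimum of 10 CPM, 11 with all gene types, 0 with the age fitted alone and 1164 without the 3 libraries. At E18 it was 18, and 111 with DESeq2, 10 with limma-voom, 7 with 10 CPM, 37 with the replicate block, 0 alone and, without the 3 libraries, 1.18% of tested genes in place of 0.11%. At P7 it was 120, and 16 with limma-voom, 68 with 10 CPM, 20 with the block, 0 alone and 9 without the 3 libraries. At P35 it was 0, and 1 to 11 under 7 alternatives, with DESeq2 the highest. At P70 it was 38, and 78 with DESeq2, 0 alone and 60 without the 3 libraries. In the interaction it was 0, and 21 with DESeq2, 3 with the block and 65 without the 3 libraries, and in the difference between E18 and E14 it was 185, and 393 with DESeq2, 0 with limma-voom, 57 with 10 CPM, 8 with the block and 1982 without the 3 libraries. Between P35 and P70 it was 173 in wild-type mice, and 277 with DESeq2 and 300 without the 3 libraries, and 487 in Setd1a+/- mice, and 799 without them. Without single libraries the number called ran from 1 (wild-type replicate 1 at E14) to 740 (wild-type 5 at E14) at E14, 7 (Setd1a+/- 2 at E18) to 150 (Setd1a+/- 2 at E14) at E18, 7 (wild-type 2) to 211 (wild-type 3) at P7, 0 to 5 (wild-type 2 at P7) at P35, 8 (Setd1a+/- 4) to 101 (Setd1a+/- 5) at P70, 0 to 5 (wild-type 5 at E14) in the interaction, 2 (Setd1a+/- 2 at E14) to 1261 (wild-type 5 at E14) in the difference between E18 and E14, and 653 to 774 overall. From P35 to P70 it ran from 50 (wild-type 5 at P35) to 279 (wild-type 5 at P70) in wild-type and 198 (Setd1a+/- 3 at P70) to 1039 (Setd1a+/- 5 at P70) in Setd1a+/- mice. The cause was not tested. With the replicate number as a block the member calls in the genotype comparisons were 0 as well, and the numbers did not pair the libraries: of 25 same-numbered pairs 9 had a correlation over 0.1, from −0.207 to 0.460. Depth limits Eomes and Neurog2 after birth, whose lowest libraries held 4 and 7 counts.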
